A study of Cricetulus griseus with 40 samples.

Results

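The genes described here encode 10 enzymes that build complex N-glycans in CHO-S cells: the mannosidases Man1a1 and Man2a1, the N-acetylglucosamine transferases Mgat1, Mgat2, Mgat4a, Mgat4b and Mgat5, the galactosyltransferase B4galt1, the core fucosyltransferase Fut8, and Uap1, which makes the sugar donor UDP-N-acetylglucosamine. They were chosen by name, and all 10 symbols were found once among the 26793 gene IDs of the files. CHO-S, a line derived from Chinese hamster ovary cells and grown in suspension, is used to produce therapeutic proteins. All libraries came from this line, with no other treatment named, grown in shake flasks of CD CHO medium with L-glutamine, an anti-clumping agent and Pen-Strep. The groups are the 10 sampling times, 72, 84, 96, 108, 120, 132, 144, 156, 168 and 180 h after seeding of a batch culture, with 4 libraries each and 40 in all. No label ties a library to 1 of the 4 cultures named in the design text, so the p-values measure the spread between libraries, part of which may be technical. The RNA comes from whole cultures, in which fewer cells using a gene and less RNA per cell cannot be told apart.

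An N-glycan arrives in the Golgi rich in mannose. Man1a1 trims mannoses so that Mgat1 can add the first N-acetylglucosamine of a hybrid or complex glycan, Man2a1 then removes further mannoses, and Mgat2 starts the other arm. Mgat4a, Mgat4b and Mgat5 add further branches, B4galt1 caps the branches with galactose, and Fut8 attaches fucose to the innermost N-acetylglucosamine. In antibodies made in CHO cells, absence of that core fucose is known to strengthen killing by immune effector cells, and galactose content is known to affect complement activation.

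Levels are given in FPKM (fragments per kilobase of transcript, scaled to the size of the library), a scale per length on which different genes can be set side by side. The summed FPKM of a library lay between 463992 and 575241, and relative depth, read from the steps of low values, between 0.82 and 1.24; the absolute depth is unknown. Mgat3, which adds the bisecting N-acetylglucosamine, and St6gal1, a sialyltransferase, are known to be silent in CHO cells: Mgat3 did not exceed 0.0487 FPKM and St6gal1 was listed at 0 in all 40 libraries. Vim, a mesenchymal marker, lay between 472 and 874 FPKM, while Col1a1 did not exceed 0.0288. Of 10 markers of blood, endothelial, epithelial, liver, glial and red cells, Alb reached 1.47 and Pecam1 1.17 FPKM at their highest, and the others stayed at or under 0.181. Mki67, a marker of dividing cells, went from 73.9 ± 8.14 FPKM at 72 h to 6.85 ± 1.72 FPKM at 180 h (SD, n = 4), so every change with time below ran beside this decline, whose part in it was not tested. Libraries of the same time differed along a shared axis, the first principal component of the deviations from the time means, which held 52.4% of the variance within times. Replicate 1 of 96 h (score -2.65 SD) and replicate 4 of 84 h (-2.38 SD) lay farthest out, and the counts of calls among the 10 genes are also given without them where they differ.

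Between 72 h and 180 h, Mgat5, Man1a1, Mgat4b and B4galt1 rose and Uap1, Fut8 and Mgat2 fell. The largest rise was that of Mgat5, whose mean at 180 h was 1.95 times that at 72 h, and the largest fall that of Uap1, to 0.554 times. Mgat1, Mgat4a and Man2a1 did not pass the test. Thus 4 of 10 were called higher and 3 lower (limma on log2(FPKM + 1), Benjamini-Hochberg adjusted p below 0.05 over 12259 genes), where 15.8% of all genes tested were called higher and 33.5% lower, 49.3% in all. The median log2 change was 0.32 over the 10 genes and -0.10 over all genes. With median-ratio scaling, which moved the median of all genes to 0.01, the split was 7 higher and 2 lower, with Mgat1, Mgat4a and Man2a1 added to the rises and Mgat2 lost (adjusted p = 0.12), where 22.2% of all genes were called higher and 24.2% lower. Without the 2 libraries farthest out it was 5 higher and 3 lower, with Mgat1 added, against 19.6% and 36.3% of all genes.

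**Figure D1:**
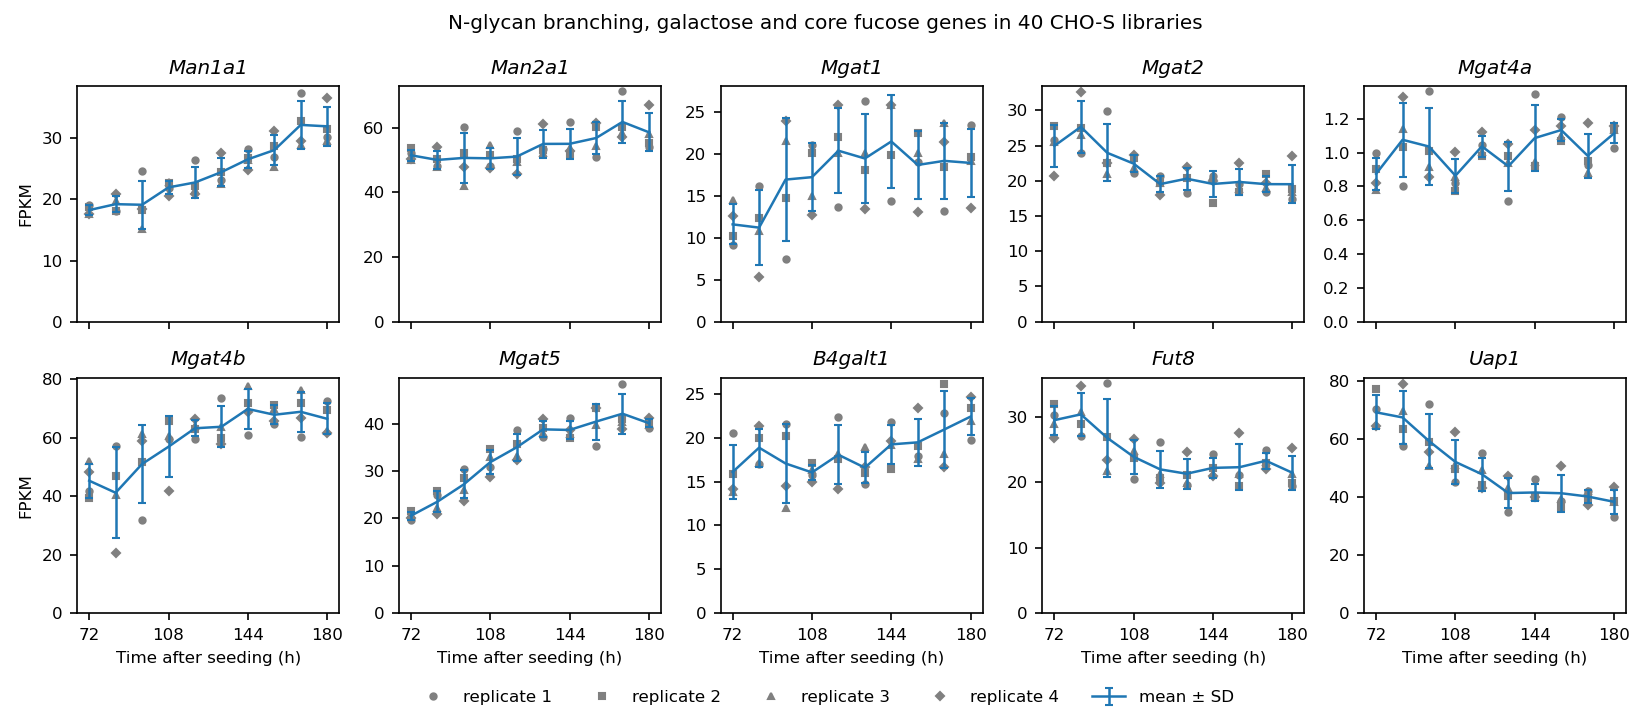
FPKM of the 10 genes (vertical axis, from 0) against the time after seeding in h (horizontal axis); grey symbols are single libraries, 4 per time, and the blue line with bars is the mean ± SD. Mgat5 climbs from 20.6 to 40.2 FPKM with little spread at either end, Uap1 declines from 69.2 to 38.3 FPKM, and Mgat1 spreads widely at every time.

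Of the trimming mannosidases, Man1a1 rose. Its 4 libraries at 72 h held 19.2, 18.7, 17.6 and 17.6 FPKM and those at 180 h 30.2, 31.6, 29.6 and 36.6 FPKM. All 4 late libraries lay above all 4 early ones, and this held for each time from 108 h onward. The mean went from 18.3 ± 0.796 to 32.0 ± 3.18 FPKM (SD, n = 4 per time), a log2 change of 0.77 ± 0.10 (SE; limma adjusted p = 8.13e-08). The rise was spread over the culture: the log2 changes of the windows 72 to 108 h, 108 to 144 h and 144 to 180 h were 0.25, 0.26 and 0.25, none of which passed by itself (adjusted p = 0.0718, 0.0709 and 0.346). Without the 2 libraries farthest out the first and the second passed (adjusted p = 0.0242 and 0.0234). Man1a1 made up 34.7 ± 1.64% of the summed FPKM of Man1a1, Man1a2 and Man1c1, the Golgi class I mannosidases, at 72 h and 48.5 ± 1.198% at 180 h.

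Man2a1, the mannosidase that acts after Mgat1, was among the most abundant of the set and varied little. It held 52.1, 53.7, 49.98 and 50.4 FPKM at 72 h and 54.0, 55.4, 58.1 and 67.1 FPKM at 180 h. The 2 sets did not overlap, but the lowest library at 180 h stood only slightly above the highest at 72 h. The log2 change of 0.18 ± 0.09 did not pass (limma adjusted p = 0.108), and it did with median-ratio scaling (0.32, adjusted p = 0.0107). Man2a1 came to 82.8 ± 3.58% of the FPKM it shares with its relative Man2a2 at 72 h and 75.7 ± 5.65% at 180 h.

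Mgat1 opens the branching pathway, and its libraries spread more than those of any other of the 10 genes, with a mean coefficient of variation of 27.3% within a time against 7.15% for Mgat5. At 72 h it held 9.10, 10.2, 14.4 and 12.5 FPKM, and at 180 h 23.4, 19.6, 19.1 and 13.5 FPKM. The lowest late library, replicate 4, fell within the range of the early ones. The means were 11.6 ± 2.38 and 18.9 ± 4.08 FPKM, and the log2 change of 0.66 ± 0.29 missed the threshold (limma adjusted p = 0.0604). It passed without replicate 3 of 72 h (0.76, adjusted p = 0.0464), without replicate 4 of 180 h (0.80, adjusted p = 0.0321) and without the 2 libraries farthest out (adjusted p = 0.0166). The last omission leaves the log2 change as it was and lowers only the estimate of spread. The axis within times held 95.9% of the variance of Mgat1 within times, with a slope of 0.36 on the log2 scale per SD, and its part in the change was not tested.

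Mgat2, which starts the other arm of the glycan, fell. Its libraries held 25.8, 27.8, 25.5 and 20.7 FPKM at 72 h and 17.3, 18.8, 18.4 and 23.5 FPKM at 180 h. Replicate 4 was the lowest library of the first set and the highest of the second, so the sets overlapped. The mean went from 25.0 ± 3.02 to 19.5 ± 2.73 FPKM, with a log2 change of -0.34 ± 0.10 (limma adjusted p = 0.00638; adjusted p = 0.12 with median-ratio scaling). Its highest mean came at 84 h (27.7 ± 3.66 FPKM), and from 120 h on its means stayed between 19.5 and 20.3 FPKM.

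The paralogs Mgat4a and Mgat4b encode transferases for the same branch and differed in level at every time. Mgat4b was the most abundant of the 10 genes at 180 h, and Mgat4a the least abundant at all 10 times. Mgat4a reached 1 FPKM in 21 of 40 libraries and never exceeded 1.36. Mgat4b made up 98.1 ± 0.423% of their summed FPKM at 72 h and 98.3 ± 0.201% at 180 h.

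Mgat4b rose. Its libraries held 41.7, 39.2, 51.9 and 48.2 FPKM at 72 h and 72.4, 69.3, 62.3 and 61.6 FPKM at 180 h, and the sets did not overlap. At each time from 120 h on all 4 libraries lay above those of 72 h. The log2 change was 0.55 ± 0.19 (limma adjusted p = 0.0173), and without replicate 2 of 72 h it was 0.48 and no longer passed (adjusted p = 0.0578). The 2 libraries farthest out on the axis were also the lowest for Mgat4b, at 20.4 FPKM in replicate 4 of 84 h and 31.9 FPKM in replicate 1 of 96 h. The axis held 77.0% of its variance within times, with a slope of 0.21 per SD; its part in the rise was not tested. For Mgat4a the libraries held 0.996, 0.906, 0.777 and 0.821 FPKM at 72 h and 1.03, 1.14, 1.13 and 1.16 FPKM at 180 h. These sets did not overlap either, yet the log2 change of 0.17 ± 0.08 did not pass (adjusted p = 0.0853). The scale of log2(FPKM + 1) understates the change of a gene near 1 FPKM, and with a pseudocount of 0.1 it was 0.32 (adjusted p = 0.083).

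Mgat5, which adds the branch that is most often extended into long polylactosamine chains and is known for its tie to growth factor receptor retention, gave the clearest rise. The 4 libraries held 19.7, 21.6, 20.9 and 20.1 FPKM at 72 h. At 108 h they held 31.0, 34.7, 33.1 and 28.8 FPKM, and at 180 h 39.2, 40.4, 39.8 and 41.2 FPKM. No library from 96 h onward overlapped those of 72 h. The mean went from 20.6 ± 0.817 to 40.2 ± 0.854 FPKM, a log2 change of 0.93 ± 0.08 (limma adjusted p = 9.18e-12), and leaving out any 1 library of the 2 times kept it between 0.91 and 0.95. It spread little along the axis within times (8.78% of its variance, slope -0.03 per SD).

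The rise of Mgat5 slowed during the culture. It gained 0.61 ± 0.08 on the log2 scale from 72 to 108 h (limma adjusted p = 7.71e-07) and 0.27 ± 0.08 from 108 to 144 h (adjusted p = 0.0164). The last window, 144 to 180 h, added 0.05 ± 0.08 (adjusted p = 0.994). The change of the last window was lower than that of the first by a log2 difference of -0.55 ± 0.11 (adjusted p = 0.0033), a comparison in which 3.27% of all genes were called (1.21% higher, 2.06% lower). Without replicate 4 of 108 h the second window gave 0.23 and did not pass (adjusted p = 0.0967). Neighbouring times overlapped throughout, so no single step of 12 h stood apart.

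B4galt1, the main galactosyltransferase of N-glycans, rose between the ends of the culture. Its libraries held 20.5, 15.9, 13.8 and 14.2 FPKM at 72 h and 19.8, 23.4, 21.9 and 24.7 FPKM at 180 h. The sets overlapped through replicate 1, which was the highest library at 72 h and the lowest at 180 h. The mean went from 16.1 ± 3.09 to 22.4 ± 2.11 FPKM, a log2 change of 0.47 ± 0.15 (limma adjusted p = 0.0108). Its mean at 108 h was 16.1 ± 0.903 FPKM, and none of the 3 windows passed. B4galt1 did not pass the test over all 10 times (adjusted p = 0.098). It was not the most abundant of its family: it came to 19.0 ± 3.74% of the summed FPKM of B4galt1 to B4galt7 at 72 h and 21.1 ± 3.06% at 180 h, where B4galt5 came to 24.1 ± 1.74% and 28.8 ± 1.03%.

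Fut8, the only enzyme known to attach core fucose in mammals, fell. It held 30.3, 32.1, 28.9 and 26.8 FPKM at 72 h and 19.5, 19.9, 21.3 and 25.2 FPKM at 180 h, and the sets did not overlap. The mean went from 29.5 ± 2.23 to 21.5 ± 2.61 FPKM, a log2 change of -0.45 ± 0.12 (limma adjusted p = 0.00198). Most of the decline had come by 120 h, where the mean was 22.0 ± 2.83 FPKM, and the lowest mean stood at 132 h (21.3 ± 2.30). Midway through the culture, at 120 and 132 h, Fut8 was lower than the mean of both ends (72, 84, 168 and 180 h) by a log2 difference of -0.25 ± 0.07 (adjusted p = 0.0261). This contrast does not test a turn by itself, since the mean at 180 h was close to the midway means. The call was lost when replicate 2, 3 or 4 of 120 h or replicate 1, 2 or 3 of 132 h was left out (adjusted p = 0.0653, 0.0509, 0.0782, 0.0758, 0.0503 and 0.0606).

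Uap1, which makes the donor used by all 5 Mgat enzymes, fell from the highest level of the set to the fourth. At 72 h its libraries held 70.3, 77.1, 64.9 and 64.5 FPKM, at 108 h 45.0, 49.8, 50.9 and 62.6 FPKM, and at 180 h 33.1, 38.6, 38.1 and 43.5 FPKM. No library from 108 h on overlapped those of 72 h. The mean went from 69.2 ± 5.89 to 38.3 ± 4.24 FPKM, a log2 change of -0.84 ± 0.12 (limma adjusted p = 3.62e-07). The first window gave -0.41 ± 0.12 (adjusted p = 0.0121), lost without replicate 2 of 72 h (adjusted p = 0.0553) or replicate 1 of 108 h (adjusted p = 0.0655). The second gave -0.31 ± 0.12 (adjusted p = 0.0691; 0.0336 without the 2 libraries farthest out) and the third -0.12 ± 0.12 (adjusted p = 0.994). Unlike for Mgat5, the third and the first window were not shown to differ (0.29 ± 0.17, adjusted p = 0.374). The axis held 81.5% of its variance within times, with a slope of -0.13 per SD; its part in the fall was not tested.

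Over all 10 times, 6 of the 10 genes differed among the times (limma moderated F test), against 49.9% of all genes: Mgat5 (adjusted p = 1.85e-13), Man1a1 (7.84e-09), Uap1 (4.92e-08), Mgat2 (3.45e-04), Fut8 (0.00119) and Mgat4b (0.00179). Without the 2 libraries farthest out 8 differed, with Man2a1 and B4galt1 added (adjusted p = 0.00848 and 0.0401), against 53.1% of all genes. With median-ratio scaling 9 differed, against 48.5% of all genes. From 72 to 108 h 2 of 10 were called, Mgat5 higher and Uap1 lower, where 18.7% of all genes were called (7.46% higher, 11.2% lower). From 108 to 144 h 1 was called, Mgat5, where 15.7% of all genes were (3.03% higher, 12.7% lower). Without the 2 libraries farthest out these counts were 5 and 3, with Man1a1, Mgat4b and Fut8 added in the first window and Man1a1 and Uap1 in the second, against 26.9% and 21.8% of all genes. In the first window, leaving out replicate 2 of 72 h or replicate 1 of 108 h gave 1 call. The shares of all genes called were then 14.2% and 13.1%. Leaving out replicate 4 of 108 h gave 3, against 21.4% of all genes. In the second window, leaving out replicate 4 of 108 h gave 0 calls, where the share of all genes called was 8.25%. Leaving out replicate 1 of 108 h or of 144 h gave 2, against 16% and 16.7% of all genes. From 144 to 180 h 0 of 10 were called by limma, with 1 at an unadjusted p below 0.05 (Man1a1), against 1.39% of all genes. Midway against both ends 2 of 10 were called, Mgat5 higher (0.28 ± 0.05, adjusted p = 3.70e-04) and Fut8 lower, against 9.36% of all genes (3.94% higher, 5.42% lower); the count was 3 with median-ratio scaling or without the 2 libraries farthest out, where Uap1 was added (adjusted p = 0.0457 and 0.0434; 9.59% and 13.2% of all genes). The share of all genes called midway itself ranged from 4.40% without replicate 4 of 120 h to 15.6% without replicate 1 of 84 h. All 4 libraries of 180 h lay above those of 72 h for 5 genes and below them for 2, against 15.2% and 30.8% of all genes.

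The order of the levels changed with time. At 72 h it ran Uap1, Man2a1, Mgat4b, Fut8, Mgat2, Mgat5, Man1a1, B4galt1, Mgat1 and Mgat4a, from 69.2 to 0.875 FPKM. The libraries of neighbours in this order overlapped for Man2a1 and Mgat4b, Fut8 and Mgat2, Mgat2 and Mgat5, Man1a1 and B4galt1, and B4galt1 and Mgat1, so those pairs were not apart beyond their spread. At 180 h it ran Mgat4b, Man2a1, Mgat5, Uap1, Man1a1, B4galt1, Fut8, Mgat2, Mgat1 and Mgat4a, from 66.4 to 1.12 FPKM. Here the neighbours did not overlap only between Man2a1 and Mgat5, between Man1a1 and B4galt1, and between Mgat1 and Mgat4a. Fut8 thus stood above Mgat5 at 72 h, and Mgat5 above Fut8 at 180 h, with no overlap of libraries at either time.

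Ratios taken within a library set neighbouring steps against each other. Man2a1 over Man1a1 had the tightest ratio: on the log2 scale of FPKM + 1 it went from 1.45 ± 0.03 at 72 h to 0.85 ± 0.07 at 180 h (SD, n = 4), a difference of -0.59 ± 0.04 (SE) with no overlap of libraries (two-sided exact permutation p = 0.0286). Fut8 over B4galt1 went from 0.85 ± 0.21 to -0.06 ± 0.11, a difference of -0.91 ± 0.12 with no overlap (exact p = 0.0286). Mgat2 over Mgat1 went from 1.06 ± 0.38 to 0.06 ± 0.50 (difference -0.998 ± 0.31, exact p = 0.0571). Mgat5 over Mgat4b went from -1.09 ± 0.20 to -0.71 ± 0.13 (0.38 ± 0.12, exact p = 0.0571). Mgat4b over Mgat4a went from 4.62 ± 0.25 to 4.99 ± 0.15 (0.37 ± 0.14, exact p = 0.0857). Mgat4a lay near 1 FPKM, so the added 1 FPKM lowers this last ratio and shapes its change. In plain FPKM, Mgat4b made up 98.1 ± 0.423% of the pair at 72 h and 98.3 ± 0.201% at 180 h. With 4 libraries against 4 the exact test cannot go below 0.0286, and after Benjamini-Hochberg adjustment over the 5 ratios none passed, at 0.0714 for 4 of them and 0.0857 for the last.

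**Figure D2:**
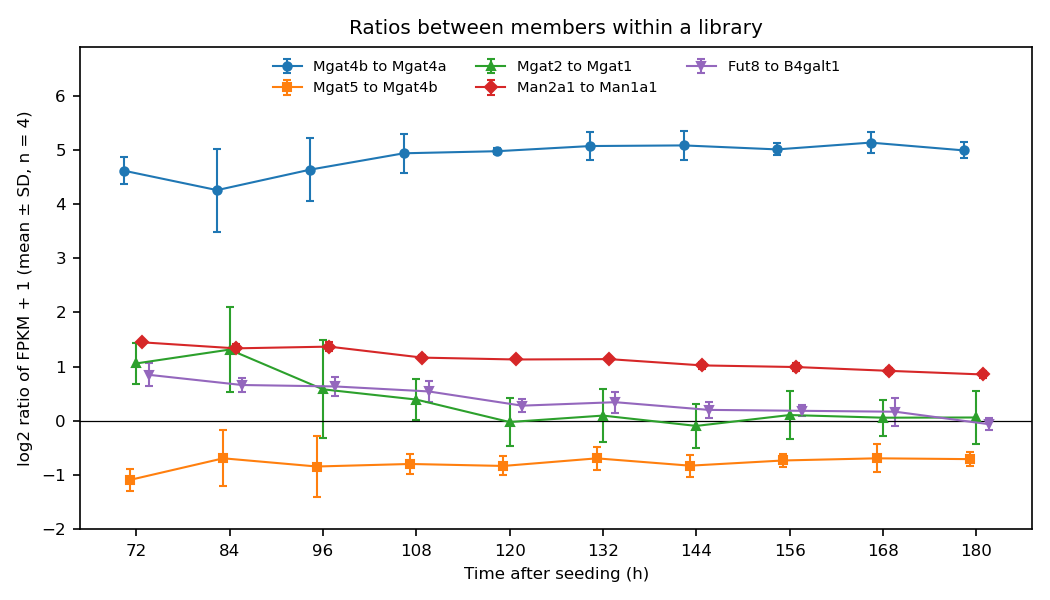
Log2 ratio of FPKM + 1 of 2 genes within a library (vertical axis, mean ± SD, n = 4) against the time after seeding in h (horizontal axis, points shifted slightly so that bars can be told apart). Man2a1 to Man1a1 goes from 1.45 to 0.85 with small bars, Fut8 to B4galt1 goes from 0.85 to -0.06, and Mgat2 to Mgat1 has wide bars.

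Along the axis within times, 8 of the 10 genes moved one way and Mgat1 and Mgat4b the other. The slopes of the 8 ran from -0.03 per SD for Mgat5 to -0.13 for Fut8 and Uap1. Over all genes 48.0% had a positive slope, the side of Mgat1 and Mgat4b. The slope and the change from 72 h to 180 h had the same sign in 5 of the 10 genes (Mgat1, Mgat4b, Mgat2, Fut8 and Uap1), against 69.5% of all genes. Of the 7 genes called at 180 h against 72 h, 4 had the same sign, against 74.9% of all genes called. Mgat5, Man1a1, B4galt1, Man2a1 and Mgat4a rose or stood higher with a negative slope. Scores have a mean of 0 at each time by construction, so the axis as computed does not move between times.

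**Figure D3:**
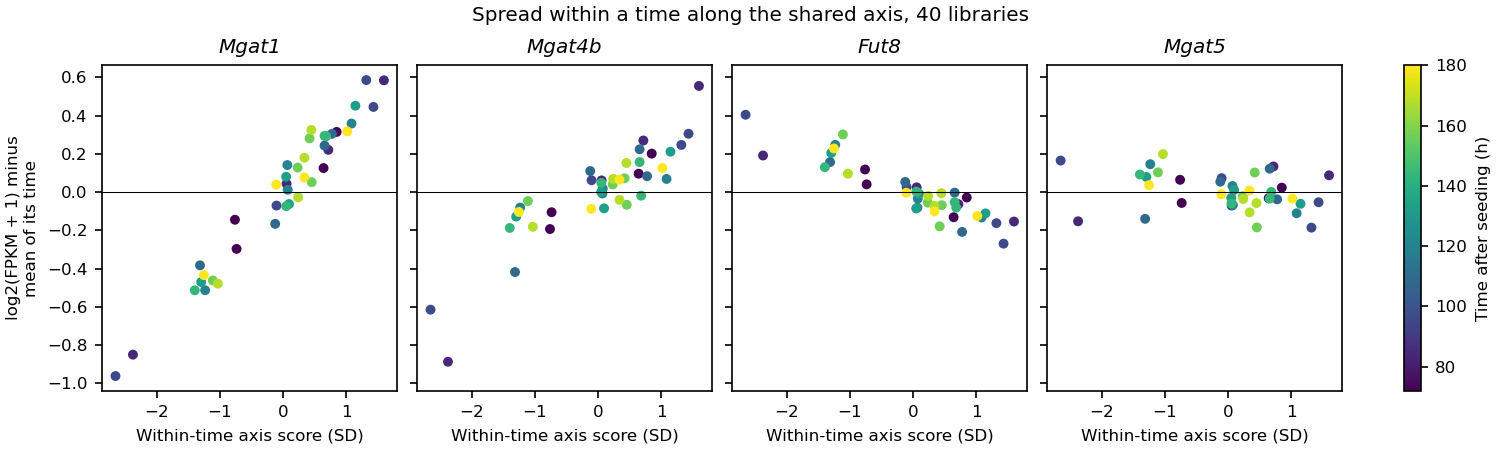
Deviation of log2(FPKM + 1) from the mean of its time (vertical axis) against the score on the within-time axis in SD (horizontal axis), 40 libraries each for Mgat1, Mgat4b, Fut8 and Mgat5, coloured by time in h. Mgat1 and Mgat4b follow the score upward (slopes 0.36 and 0.21 per SD), Fut8 downward (-0.13), and Mgat5 barely (-0.03).

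The other genes of the pathway came from 8 lists of 46 genes, of which 43 were matched by symbol and 38 passed the filter on low values. At 180 h against 72 h 6 of the 38 were higher and 5 lower, with a median log2 change of -0.01, beside 15.8% of all genes called higher and 33.5% lower. The same shares of all genes stand beside the counts of the single lists below. With median-ratio scaling the split was 10 higher and 1 lower, against 22.2% and 24.2% of all genes. Without the 2 libraries farthest out it was 10 and 8, against 19.6% and 36.3%. Mgat4c was listed at 0 in all 40 libraries, and the other GlcNAc transferases outside the set, Mgat3, Mgat4d and Mgat5b, did not exceed 0.0763 FPKM. Without replicate 1 of 180 h 3 of the 38 were higher and 4 lower, against 13.3% and 29.1% of all genes.

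In the endoplasmic reticulum, where the first sugars are trimmed, 2 of 4 genes rose. Prkcsh, the regulatory subunit of glucosidase II, went from 71.4 ± 15.1 to 162 ± 35.7 FPKM (log2 change 1.17 ± 0.30, limma adjusted p = 0.00138), with libraries of 57.0, 60.9, 88.9 and 78.9 FPKM and then 204, 173, 151 and 119 FPKM. Mogs, glucosidase I, rose by 0.67 ± 0.24 (adjusted p = 0.0211). The catalytic subunit of glucosidase II, Ganab, stood at -0.08 ± 0.08 (adjusted p = 0.404) and at 0.06 with median-ratio scaling. Among the other Golgi mannosidases 1 of 3 rose, Man2a2 (0.75 ± 0.26, adjusted p = 0.0168), from 10.7 ± 2.38 to 18.8 ± 4.14 FPKM.

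Among 7 genes of galactose transfer and chain elongation 1 rose and 1 fell. B4galt5, whose product is best known as a lactosylceramide synthase, rose from 20.4 ± 1.63 to 30.7 ± 2.05 FPKM (0.57 ± 0.08, limma adjusted p = 6.46e-07). Of 5 genes of fucose supply 1 also rose and 1 fell. Fcsk, the fucose salvage kinase, rose from 4.02 ± 0.585 to 6.49 ± 1.53 FPKM (0.56 ± 0.23, adjusted p = 0.0392). With median-ratio scaling the fall in this list, that of Gmds, was no longer called (adjusted p = 0.349). Without the 2 libraries farthest out Gfus (-0.24, adjusted p = 0.00496) and Fpgt (-0.30, adjusted p = 0.033), named after their values were seen, were also called lower. The GDP-fucose transporter Slc35c1, named after its values were seen, was higher at 108 h than at 72 h (25.9 ± 3.53 against 19.2 ± 0.612 FPKM, 0.40 ± 0.10, adjusted p = 0.00456) and stood at 22.7 ± 1.31 FPKM at 180 h. At 180 h against 72 h its log2 change was 0.23 ± 0.10 (adjusted p = 0.063). It passed there with median-ratio scaling (0.36, adjusted p = 0.00197) and without the 2 libraries farthest out (adjusted p = 0.0136). Midway against both ends it was higher (0.25 ± 0.06, adjusted p = 0.0109). In UDP-galactose supply 0 of 4 genes passed in limma, with 1 at an unadjusted p below 0.05, the transporter Slc35a2 (0.79 ± 0.34, adjusted p = 0.0556). Slc35a2 passed with median-ratio scaling (adjusted p = 0.0246) and without the 2 libraries farthest out (0.0112), where Galt, which converts galactose phosphate, also passed (-0.30, adjusted p = 0.0471).

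UDP-N-acetylglucosamine supply, with 1 of 5 genes tested higher and 1 lower, held the largest change among the 38 genes. Uap1l1, a relative of Uap1 annotated as its like gene, held 18.4, 20.1, 33.7 and 29.6 FPKM at 72 h and 92.8, 79.4, 68.7 and 44.8 FPKM at 180 h, with no overlap. It rose by 1.45 ± 0.37 on the log2 scale (limma adjusted p = 0.00137) while Uap1 fell. At 72 h Uap1 thus made up 73.2 ± 7.07% of the FPKM of the pair. Its share was 49.9 ± 11.5% by 108 h and 35.6 ± 8.88% by 144 h. At 180 h the share of single libraries ran from 26.3 to 49.3%. The axis within times held 97.5% of the variance of Uap1l1 within times (slope 0.46 per SD), and its part in the rise was not tested.

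The 5 pathway genes that fell, named after their values were seen, were Cog6, Cog2, B3gnt2, Pgm3 and Gmds. Cog6 (-0.50 ± 0.11) and Cog2 (-0.28 ± 0.09) belong to the complex that tethers vesicles at the Golgi. Of 10 genes of Golgi homeostasis 2 fell and 0 rose, where 33.5% of all genes tested were called lower and 15.8% higher. B3gnt2 (-0.42 ± 0.13) extends polylactosamine, Pgm3 (-0.33 ± 0.10) acts before Uap1, and Gmds (-0.24 ± 0.09) acts on the way to GDP-fucose. With median-ratio scaling Cog6 kept its call (adjusted p = 0.0107) and the other 4 lost theirs (adjusted p = 0.0857 to 0.349), while Cog1 (0.35, adjusted p = 0.036) and Cog7 (0.45, adjusted p = 0.0135) were called higher, so that 2 genes of Golgi homeostasis rose and 1 fell. Of the 6 that rose, 5 had slopes on the axis within times between 0.27 and 0.46 per SD (Fcsk, Mogs, Man2a2, Prkcsh and Uap1l1) and B4galt5 one of 0.05. Among all 2665 genes with a slope of at least 0.20, 22.2% were called higher at 180 h and 3.11% lower, against 15.8% and 33.5% of all genes tested. The part of the axis in these rises was not tested. Leaving out single libraries lost the calls of Mogs (replicate 1 or 2 of either time), Man2a2 (replicate 1 of either time), Fcsk (6 of the 8 libraries, all but replicate 4 of either time) and Gmds (replicate 1 or 3 of 180 h). The highest adjusted p of these was 0.0695 for Mogs, 0.0681 for Man2a2, 0.145 for Fcsk and 0.0569 for Gmds.

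**Figure D4:**
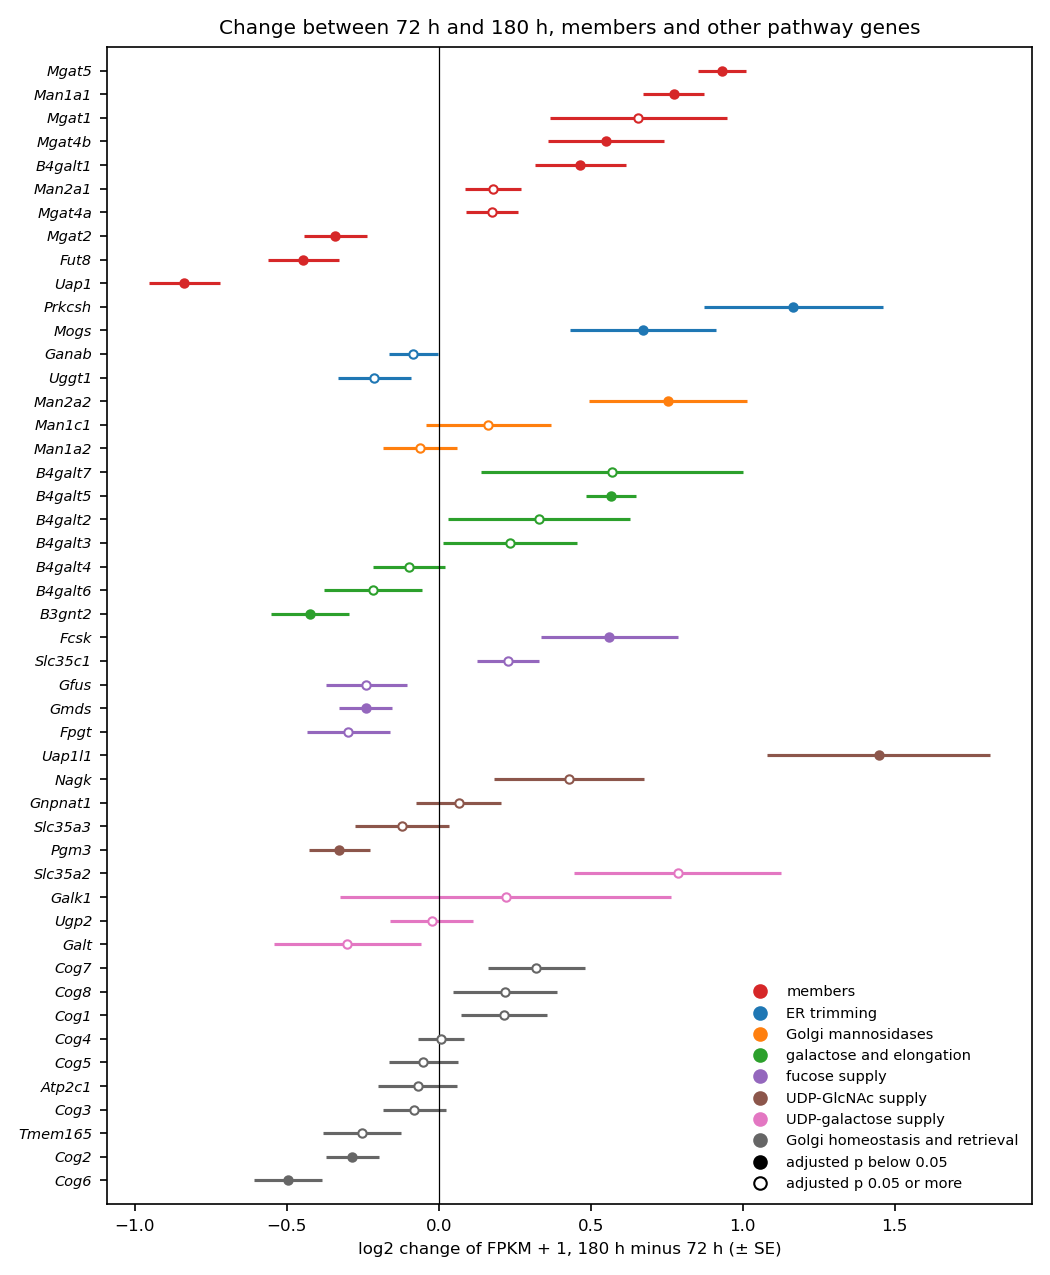
Log2 change of FPKM + 1 from 72 h to 180 h with its SE (horizontal axis) for the 10 genes of the set, shown as members, and for 38 other pathway genes (vertical axis, coloured by list); filled points have an adjusted p below 0.05. Uap1l1 (1.45) and Prkcsh (1.17) lie farthest to the right with wide bars, Mgat5 (0.93) has a narrow one, and Uap1 (-0.84) lies farthest to the left.

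Genes with the most similar course were named for the largest rise and the largest fall, by Pearson's r of the 10 time means of log2(FPKM + 1), over 7566 genes with a symbol and a mean of at least 5 FPKM. For Mgat5 these were Fndc3a (r = 0.998), Usp18, the protease that removes ISG15 (0.997), and the matrix metalloproteinase Mmp19 (0.997). Mmp19 went from 107 ± 7.03 to 479 ± 24.9 FPKM, a far larger change than that of Mgat5. For Uap1 they were the nucleosome-binding Hmgn5, the tRNA methyltransferase Trmt10a and the augmin subunit Haus3, which helps to build the mitotic spindle (r = 0.996 each). A smooth course is shared by many genes: 645 reached an r of 0.95 with Mgat5 and 1539 with Uap1.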

How the data were processed

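RNA of 40 CHO-S libraries was measured with a stranded mRNA kit and read pairs, per the labels' protocols. The authors deposited FPKM per NCBI gene ID, 1 file per library. The submitters' processing notes name Cufflinks 2.2.1, Trimmomatic 0.32, SAMtools 1.0 and FastQC. Which aligner, build, annotation and strand setting they used is not given in the sources used here, so overlapping or antisense genes may share reads. In each file 23 lines without a gene ID hold 0. Lines of an ID were summed (634 IDs on several lines, none of the 10 genes). Symbols came from the RefSeq table of assembly CriGri-PICRH-1.0, which matched 23196 of 26793 IDs. No sequence was used.

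A gene entered the tests if 4 or more libraries reached 1 FPKM (12259 did, among them all 10 genes of the set). The tool was limma 3.58.1 (R 4.3.3), fitted once across the 10 times to log2(FPKM + 1) with a trended, robust variance and 30 residual degrees of freedom. Log2 changes are on that scale. Ratios used a two-sided exact permutation test. FPKM carry no counts, so intervals from depth cannot be given. Deviations of same-numbered libraries of different times had correlations from -0.78 to 0.77 (median 0.01, 60 of 180 pairs over 0.1). Not every pair exceeded 0.1, so no pairing by replicate number was used. This check cannot show that libraries of different times are independent, since cultures may carry different numbers at different times. No 2 libraries were identical. The 10 genes, the other lists, the naming rule (all 10 genes; other pathway genes past the test with an absolute log2 change of at least 0.5; the 3 genes most alike in course) and the alternatives were chosen with earlier results of these data known.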

Additional observations from a re-analysis of the deposited data

Results flagged for a closer look

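Mgat5 stood out because its change differed between the last window (144 to 180 h) and the first (72 to 108 h), by -0.55 on the log2 scale. Single libraries far from the other 3 of their time were found in 3 of 100 groups of 4 libraries, where chance alone gives about 1 in 20. Replicate 4 of 132 h held 61.3 FPKM of Man2a1, above the others of that time. Replicate 1 of 144 h held 61.9 FPKM of Man2a1 and 46.1 FPKM of Uap1, also above the others. Replicate 1 of 144 h had a score of -1.40 on the axis within times and replicate 4 of 132 h one of -1.29, the lowest of their times, and the slopes of both genes on that axis were negative (-0.09 for Man2a1, -0.13 for Uap1). The part of the axis in these values was not tested.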

How the results depend on the processing

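The 7 calls of 180 h against 72 h were 7 to 9 with the other pseudocount, filters, scaling, weights and variance model, 10 with the score on that axis added to the model, 8 without the 2 libraries farthest out, and 6 to 8 without single libraries. A filter of 5 FPKM left 9 of the 10 genes, without Mgat4a, and 7 of these were called, against 54.4% of all genes. Over all times it gave 7 of 9 (55.3% of all genes) and midway 3 of 9 (11.8%). With no filter 7 of 10 were called at 180 h against 72 h, against 30.9% of all genes. The axis was taken from the same residuals as the test, so its p-values are too small. The 2 libraries farthest out were picked from those residuals as well, so p-values without them tend to be too small. With array weights, calls among the 10 genes were 10 over all times (6 to 9 without single libraries), 7 in the first window, 5 in the second, 1 in the third, 5 for the third minus the first and 7 midway. With the axis score they were 9 over all times, and 6, 6, 1, 5 and 6 for the windows, their difference and midway. The shares of all genes called rose as well. With array weights they were 86.4% over all times and 68.6% at 180 h against 72 h. They were 55.4%, 33.6% and 8.4% in the windows, 47.0% for their difference and 42.4% midway. With the axis score they were 80.7% over all times and 68.4% at 180 h against 72 h. They were 48.4%, 44.0% and 11.3% in the windows, 35.6% for their difference and 50.1% midway. Without single libraries the share at 180 h against 72 h ran from 42.4% to 50.8%. The second window gave 2 with median-ratio scaling, against 11.1% of all genes. Without the 2 libraries farthest out the first and second windows gave 5 and 3. Without single libraries the first window gave 1 to 3, the second 0 to 2 and midway 1 to 4. The shares of all genes then ran from 13.1% to 21.4%, from 8.25% to 16.7% and from 4.4% to 15.6%. Midway, 4 were called without replicate 4 of 72 h, replicate 1 of 84 h or replicate 4 of 132 h. The share of all genes for the third minus the first window was 2.06% without replicate 1 of 108 h, and that of the third window 0.914% without replicate 1 of 180 h. The 11 calls among other pathway genes became 27 with array weights, 22 with the axis score, 18 without the 2 libraries farthest out, and 7 to 15 without single libraries. The cause was not tested. With the replicate block the counts among the 10 genes were the same as without it (7 of 10 at 180 h against 72 h). No label ties replicate numbers to cultures, so the block cannot show whether libraries of 1 culture depend on each other. No called value of a named gene and no ratio turned its direction in the alternatives run. Leaving out a library takes the exact test to 3 against 4, where p cannot go below 0.0571, and sign flips of pairs to 0.125, so those gave ratio values only. Leaving out any 1 library kept the Man2a1 to Man1a1 difference between -0.63 and -0.57. FPKM hold no depth, which limits what can be said of Mgat4a near 1 FPKM.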

Other observations

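Replicate 1 or replicate 4 had the lowest score on the axis within times at each time but 72 h, where replicates 1 and 2 were low together (-0.73 and -0.76). Replicate 4 was lowest at 84, 108, 132, 156 and 180 h and replicate 1 at 96, 120, 144 and 168 h. Mgat1 was lowest in the same library as the score at each of these 9 times, at 5.36 FPKM in replicate 4 of 84 h and 7.49 FPKM in replicate 1 of 96 h. Man1a1 and Man2a1 moved by -0.09 per SD each, and the log2 ratio of Man2a1 to Man1a1 had an SD between 0.03 and 0.09 within a time, against 0.14 and 0.13 for the residual SD of log2(FPKM + 1) of the single genes over all times.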
